A study of Mus musculus with 10 samples.

Results

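Imprinted genes, which are transcribed mainly from either the maternal or the paternal copy of a chromosome, were followed in RNA-seq libraries of mouse cortex at E12.5. A set of 38 imprinted mouse genes was matched by symbol, and every gene was found, as 38 of the 56748 genes in the deposited count tables. The samples were 5 libraries labelled Emx2 KO and 5 labelled WT, each from total RNA of cortex, which the series' design text calls dorsal telencephalon. Emx2 encodes a homeobox transcription factor of the dorsal telencephalon, and the comparison asks how its loss alters gene expression there. The labels give no strain, sex or litter, how the Emx2 allele was made, or whether each library came from a separate embryo. Each p-value thus reflects how much these libraries vary, and some of that variation may be technical. The libraries are called KO1 to KO5 and WT1 to WT5 in accession order, and equal numbers pair nothing.

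At an imprinted locus, DNA methylation set down in the egg or the sperm marks the parental origin of each copy, and the mark is kept through cell division after fertilization. A marked control region often governs a cluster of neighbours, so that a protein-coding gene and a long noncoding RNA are transcribed from opposite parental copies. Many imprinted genes act in growth, in cell cycle exit and in the development of neurons, and the embryonic brain expresses a large share of them. The allele assignments used here (13 genes maternal, 23 paternal, and Grb10 and Gnas used from either copy depending on transcript or cell type) come from background knowledge. Some genes in the maternal group, such as Igf2r and Commd1, are also imprinted only in certain tissues. Whether each assignment holds in this cortex was not checked. Counts per gene hold no allelic information, so a change in level says nothing about which copy was transcribed.

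Library totals lay between 9720840 and 35674113 counts, of which the 38 genes together held 0.656% to 0.921% of the counts in the knockout libraries and 0.669% to 0.749% in the wild-type libraries. Levels are given as CPM, counts scaled to a common library total with TMM factors. Emx2 itself had 146, 129, 108, 137 and 94.5 CPM in KO1 to KO5 and 207, 178, 174, 182 and 185 CPM in WT1 to WT5. Its transcripts were thus lower in every knockout library than in any wild-type library but were not absent, and the log2 fold change was -0.59 ± 0.11 (SE; adjusted p = 0.00271, edgeR quasi-likelihood test with Benjamini-Hochberg adjustment). In the 4 libraries whose titles end in the code 241022, the difference was -0.49 and did not pass the threshold (edgeR adjusted p = 0.0653). Tbr1, a transcription factor of early cortical neurons, was detected at 269.7 ± 21.5 CPM in the wild type and 430.4 ± 37.3 CPM in the knockout (SD, n = 5 each). In bulk tissue, fewer cells of a type and less RNA per cell cannot be told apart, and this holds for every level below.

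Of the 38 genes, 37 had enough counts to be tested. Phlda2, a regulator of placental growth, was not tested, as it had 0 to 5 counts per library. At an adjusted p under 0.05 (edgeR, over 18163 genes), 8 of the 37 rose in the knockout and 4 fell. Meg3, Mirg, Cdkn1c, Blcap, Peg13, Nnat, Mest and Gnas rose, and Plagl1, Zdbf2, Airn and Kcnq1ot1 fell. This is 32.4% of the imprinted genes tested, against 22.2% of all genes tested. The share that rose was 21.6%, against 12.9% of all genes, and the share that fell was 10.8%, against 9.33%. Values of the groups did not overlap for 7 of the 37 (18.9%), against 16.7% of all genes. Among all called genes the share that rose was 58.1%, but with other scalings it was 45.8% (upper quartile) and 42% (total counts alone). Under those scalings the 12 called imprinted genes all remained past the threshold with the same sign.

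By parental allele, 4 of the 12 tested maternally expressed genes rose (Meg3, Mirg, Cdkn1c and Blcap) and 0 fell. These are 33.3% and 0%, against 12.9% and 9.33% of all genes tested. At an unadjusted p under 0.05, 5 of the 12 were higher and 0 lower in edgeR's test, against 3316 and 2822 of all 18163 genes. DESeq2 and limma-voom likewise called 4 maternal genes higher and 0 lower. The median log2 fold change of the 12 was 0.19, with a range of -0.15 to 0.99, and 8 values were positive. Of the 23 paternally expressed genes, 3 rose (Peg13, Nnat and Mest, 13%) and 4 fell (Plagl1, Zdbf2, Airn and Kcnq1ot1, 17.4%). At an unadjusted p under 0.05, 4 of the 23 were higher and 4 lower in edgeR's test. DESeq2 and limma-voom each called 4 paternal genes higher and 4 lower. The median of the paternal genes was 0.12, with a range of -0.66 to 0.70, and 14 values were positive (Igf2 and Magel2, both near 0, turn negative when total counts alone are used). The median over all genes tested was -0.01. Of the genes used from either copy, Gnas rose and Grb10 did not pass the threshold. All 4 imprinted genes that fell are thus assigned to the paternal allele, while the risen genes come from both groups. With only 12 maternal genes, 0 falls lies near the 9.33% of all genes that fell. The maternally expressed H19 was called lower in code 14922 alone, in the 5 small libraries alone and without KO1. In those 2 subsets 0 maternal genes rose. The difference between maternal and paternal genes was not tested.

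**Figure D1:**
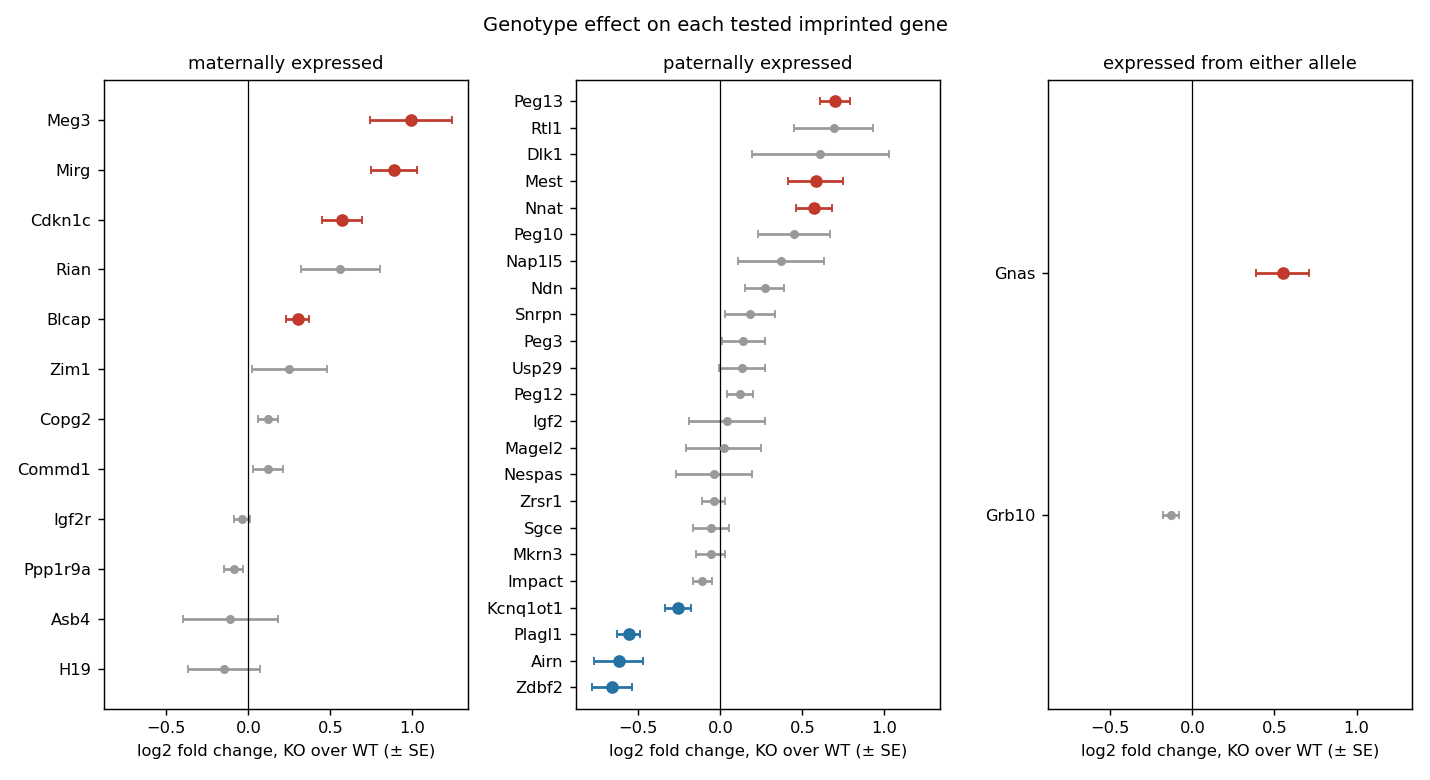
Log2 fold change (x axis, knockout over wild type) with its standard error for each of the 37 tested imprinted genes, in panels by expressed allele. Genes past the threshold are red where they rose and blue where they fell, and the 4 blue points, from -0.66 to -0.26, all lie in the panel of paternally expressed genes.

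The cluster on chromosome 12 holds the paternally expressed protein-coding genes Dlk1 and Rtl1 and the maternally expressed noncoding RNAs Meg3, Rian and Mirg, the last of which hosts many microRNAs. All 5 had positive log2 fold changes, and Meg3 and Mirg rose. Meg3 had 534, 739, 1269.9, 650.2 and 539 CPM in KO1 to KO5 and 335, 499.5, 367, 348 and 331 CPM in WT1 to WT5. Every knockout library was above every wild-type library, with KO3 far above the other knockout libraries and WT2 closest to the knockout values. Meg3 rose by 0.99 ± 0.25 on the log2 scale (SE; edgeR adjusted p = 0.0199), and the call was lost without WT1, without WT5, with Y-linked expression as a covariate (adjusted p = 0.0706) and with no filter on low counts (0.054). Mirg had 13.3, 15.3, 19, 15.5 and 10.6 CPM in KO1 to KO5 and 8.56, 7.97, 7.52, 7.23 and 8.83 CPM in WT1 to WT5. Here too the groups did not overlap, and the log2 fold change was 0.89 ± 0.14 (SE; edgeR adjusted p = 6.83e-04).

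MicroRNAs encoded on the same strand within the noncoding RNA genes of this cluster are known processed products of their transcripts. Of these genes Meg3 and Mirg rose, and sequences are shown for them, while Rian did not pass the threshold. Mirg holds 14 microRNA genes in RefSeq (GRCm38.p6), with 26 mature forms and 25 different seeds, Rian 3 genes with 6 mature forms, and Meg3 2 genes with 3. Only 1 seed occurs in more than 1 mature form of Mirg, that of miR-453 and miR-496a-5p. The sequences are from RefSeq, 5′ to 3′, with the seed (bases 2 to 8) in capitals.
miR-453 (Mirg, chr12:109735669-109735692, plus strand): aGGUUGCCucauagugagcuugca
miR-496a-5p (Mirg, chr12:109739132-109739152, plus strand): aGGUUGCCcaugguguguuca
miR-134-5p (Mirg, chr12:109734145-109734166, plus strand): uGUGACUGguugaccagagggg
miR-410-3p (Mirg, chr12:109743764-109743784, plus strand): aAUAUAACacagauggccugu
miR-770-5p (Meg3, chr12:109563710-109563731, plus strand): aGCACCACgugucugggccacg
The mature microRNAs themselves were not measured by these gene counts.

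The other members of the cluster did not pass the threshold. Dlk1, a transmembrane protein related to Notch ligands, had 46.6, 27.8, 43.7, 23.1 and 15 CPM in KO1 to KO5 and 23.3, 22.2, 14.7, 8.66 and 37 CPM in WT1 to WT5. Its groups overlapped over most of their range, as WT5 was above 3 of the 5 knockout libraries and KO5 was below 3 of the 5 wild-type libraries (log2 fold change 0.61 ± 0.42 SE, edgeR adjusted p = 0.365). Rian had a log2 fold change of 0.56 ± 0.24 (SE; edgeR adjusted p = 0.128). Rtl1, a protein derived from a retrotransposon, was expressed at only 3.2 ± 0.992 CPM in the knockout and 2 ± 0.452 CPM in the wild type (SD, n = 5 each). Its difference of 0.69 ± 0.24 on the log2 scale missed the threshold in edgeR (adjusted p = 0.0577) and passed it in DESeq2 (0.0354) and limma-voom (0.044).

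On distal chromosome 7, Cdkn1c rose and its neighbour Kcnq1ot1 fell. Cdkn1c encodes a cyclin-dependent kinase inhibitor that restrains proliferation, and Kcnq1ot1 is a long noncoding RNA whose transcription from the paternal copy silences neighbours there. Cdkn1c had 196, 163, 188, 160.0 and 117 CPM in KO1 to KO5 and 112, 115, 118, 98.9 and 112 CPM in WT1 to WT5. KO5 fell within the wild-type range, just below WT3, and the other 4 knockout libraries were above every wild-type library. This gave a log2 fold change of 0.57 ± 0.12 (SE; edgeR adjusted p = 0.00685). Kcnq1ot1 had 47.1, 61.3, 60.3, 51.9 and 56.9 CPM in KO1 to KO5 and 73.4, 60.6, 70.9, 65.1 and 60.7 CPM in WT1 to WT5. The groups met at their edges, with KO2 above WT2 and WT5. Its log2 fold change was -0.26 ± 0.08 (SE; edgeR adjusted p = 0.0373), and the call was lost on leaving out KO1, KO4, KO5, WT1, WT3 or WT4 and with library size class as a block (0.054).

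H19 and Igf2, the pair of genes at the other control region of distal chromosome 7, did not pass the threshold. H19, a maternally expressed noncoding RNA, had 555, 271, 248, 342 and 265 CPM in KO1 to KO5 and 432, 410.2, 337, 364 and 329 CPM in WT1 to WT5. KO1 was the highest of all libraries, and KO2, KO3 and KO5 were below the whole wild-type range. The log2 fold change was -0.15 ± 0.22 (SE; edgeR adjusted p = 0.688). Without KO1 it was -0.42 and passed the threshold, so that H19's position rests on this library. Igf2, the paternally expressed growth factor, had 43.7, 23.6, 17.5, 29.2 and 23.6 CPM in KO1 to KO5 and 29.9, 30.7, 27.3, 27.2 and 18.9 CPM in WT1 to WT5. KO1 was again the highest and KO3 the lowest of all 10 libraries, and the log2 fold change was 0.04 ± 0.23 (SE; edgeR adjusted p = 0.927), without a stable sign. In GENCODE M21 the gene Gm49394 covers 62.8% of Igf2's exon bases on the same strand and had 0 counts in all 10 libraries. The sources used here do not give how reads in shared exons were counted, so the level of Igf2 may lack such reads.

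H19 carries the precursor of miR-675, shown because H19 had the highest level per length of the maternally expressed genes. Both arms are given from RefSeq (GRCm38.p6), 5′ to 3′, with the seed in capitals.
miR-675-5p (H19, chr7:142577112-142577133, minus strand): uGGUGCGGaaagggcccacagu
miR-675-3p (H19, chr7:142577078-142577099, minus strand): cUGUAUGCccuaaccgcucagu

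Among the knockout libraries, KO1 also had the highest summed levels of markers of blood, vessels and meninges. This did not hold for each marker, as Hbb-bs, Rgs5 and Dcn were higher in KO5 than in KO1. The summed level of 12 erythroid genes was 7725 CPM in KO1 and 2421 to 4420.1 CPM in the other knockout libraries, against 2337 to 5718 CPM in the wild type. The sum of 15 endothelial and pericyte genes was 434 CPM in KO1, 253 to 366 CPM in the other knockout libraries and 315 to 417 CPM in the wild type. A sum of 15 genes of meninges and mesenchyme gave 993 CPM in KO1, 730.0 to 902 CPM in the other knockout libraries and 731 to 999 CPM in the wild type. None of these marker genes was at 0 in all libraries of a genotype, and their part in the levels of H19 and Igf2 was not tested. Between genotypes, 0 of 12 erythroid genes passed edgeR's threshold (1 was higher and 0 lower at an unadjusted p under 0.05). Hbb-bt, a globin gene, had the smallest p, with a log2 fold change of 0.72 ± 0.29 (SE; edgeR adjusted p = 0.105). Of 15 endothelial and pericyte genes 1 passed the threshold (6.67%, against 22.2% of all genes). This was Rgs5, a pericyte gene, which fell by 0.49 on the log2 scale. The median over this list was -0.25, and 2 of the 15 had positive log2 fold changes. At an unadjusted p under 0.05 (edgeR), 0 of the 15 were higher and 6 lower, against 3316 and 2822 of all 18163 genes. Of 15 meningeal genes 3 fell and 0 rose (20% called, against 22.2% of all genes), and 5 had positive log2 fold changes. The 3 were Ogn (-0.66), Aldh1a2 (-0.85) and Dcn (-0.38), genes of the extracellular matrix and of retinoic acid synthesis.

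Plagl1 and Zdbf2 were the most abundant of the imprinted genes that fell. Plagl1 encodes a zinc finger transcription factor that can arrest the cell cycle and that regulates other imprinted genes. It had 522, 505, 432, 473 and 516 CPM in KO1 to KO5 and 799.9, 631, 683, 765 and 724 CPM in WT1 to WT5. The groups were well apart, the highest knockout library lying far below the lowest wild-type library. Plagl1 thus fell, with a log2 fold change of -0.56 ± 0.07 (SE; edgeR adjusted p = 1.80e-04). Zdbf2 encodes a protein with a DBF4-type zinc finger and is known for a role in postnatal growth. It had 136, 164, 213, 147 and 155 CPM in KO1 to KO5 and 296, 255, 220.0, 266 and 248 CPM in WT1 to WT5. No values overlapped, although KO3 came within a few CPM of WT3, and the log2 fold change was -0.66 ± 0.12 (SE; edgeR adjusted p = 0.00253).

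The promoters of these genes hold the hexamer TGCCGC, the core of the site that the imprint maintenance factor ZFP57 binds when it is methylated. RefSeq promoter windows, from 250 bases before to 50 after a start site, were found for 30 of the 38 genes. The hexamer, searched on both strands, was present for 12 of these 30 genes (40%), against 13.1% of 27025 genes with a promoter window. It occurred in 3 of the 6 risen genes with a window (Meg3, Nnat and Mest) and in 2 of the 4 that fell. The matches are shown in part for the fallen genes and for Meg3, with 30 flanking bases where the matches allow, on the strand of the gene, from RefSeq (GRCm38.p6) and with the hexamer or its reverse complement in capitals.
Zdbf2 (within chr1:63200108-63200407, plus strand): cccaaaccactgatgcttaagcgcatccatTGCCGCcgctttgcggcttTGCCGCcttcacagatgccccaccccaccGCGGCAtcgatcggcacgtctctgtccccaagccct
Plagl1 (within chr10:13090582-13090881, plus strand): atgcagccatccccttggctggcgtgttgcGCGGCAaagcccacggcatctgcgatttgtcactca
Meg3 (within chr12:109540746-109541045, plus strand): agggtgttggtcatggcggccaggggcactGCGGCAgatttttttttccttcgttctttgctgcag
The match in Plagl1 starts 90 bases before the start site, and that in Meg3 190 bases before it. A match describes these letters only, and neither binding nor methylation was measured. The letters GGGGCCCC, a core reported for PLAGL1 sites, were in windows of 3 of the 30 genes (10%, Peg3, Ppp1r9a and Usp29), against 1.25% of all genes, and the homeodomain core TAATTA was in 2 (6.67%, Igf2 and Asb4), against 6.12%. Peg3 and Usp29 are transcribed in opposite directions from overlapping windows, so they share the match.

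On chromosome 17, Airn fell while Igf2r, which it overlaps in the antisense direction, did not change past the threshold. Airn is a noncoding RNA whose transcription from the paternal copy silences Igf2r, and Igf2r encodes the receptor that carries IGF2 to the lysosome. Airn had 6.16, 3.67, 5.11, 7.07 and 5.18 CPM in KO1 to KO5 and 8.4, 8.26, 8.43, 8.21 and 8.63 CPM in WT1 to WT5. The wild-type values lay close to each other and above every knockout value, and the knockout values were far more spread. Airn fell by a log2 fold change of -0.62 ± 0.15 (SE; edgeR adjusted p = 0.011), on 69 to 305 counts per library. Without KO3 and KO5 together, a setting chosen after seeing the data, the adjusted p was 0.0533. Igf2r had 112, 114, 108, 125 and 118 CPM in KO1 to KO5 and 131, 112, 121, 117 and 109.5 CPM in WT1 to WT5. These ranges overlapped almost entirely, with a log2 fold change of -0.04 ± 0.05 (SE; edgeR adjusted p = 0.701).

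Nnat and Blcap on chromosome 2 are transcribed from opposite alleles, with Nnat lying inside an intron of Blcap, and both rose. Nnat encodes neuronatin, a small membrane protein of developing neurons, and held 19% to 29.1% of all counts of the imprinted genes in a library. It had 2402, 2395, 2592, 2109.6 and 1704 CPM in KO1 to KO5 and 1317, 1747, 1518, 1431 and 1536 CPM in WT1 to WT5. KO5 was below WT2, and the other knockout libraries were above the wild-type range. Nnat rose by 0.57 ± 0.11 on the log2 scale (SE; edgeR adjusted p = 0.00325). Blcap, a small membrane protein first described in bladder cancer, had 117, 120.3, 148, 129 and 114 CPM in KO1 to KO5 and 95.4, 103, 102, 105 and 103 CPM in WT1 to WT5. The groups did not overlap, and the log2 fold change of 0.30 ± 0.07 (SE; edgeR adjusted p = 0.00641) was smaller than that of Nnat.

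Farther along chromosome 2, Gnas encodes the alpha subunit of the stimulatory G protein, with further transcripts that start at imprinted promoters. Gnas had 179.9, 168, 177, 190.3 and 138 CPM in KO1 to KO5 and 105, 138, 124, 77.5 and 141 CPM in WT1 to WT5. KO5 lay at the level of WT2 and WT5, and WT4 was much the lowest. Gnas rose, at a log2 fold change of 0.55 ± 0.16 (SE; edgeR adjusted p = 0.0311), and the call was lost on leaving out any of KO1 to KO4, WT1 or WT3. It was also lost with Y-linked expression as a covariate (edgeR adjusted p = 0.0745) and with no filter on low counts (0.0934). Counts per gene do not separate its transcripts. Nespas, the paternally expressed antisense RNA of this locus, was low at 2.12 ± 0.594 CPM in the knockout and 2.17 ± 0.46 CPM in the wild type (SD, n = 5 each), and did not pass the threshold (edgeR adjusted p = 0.931). Exons of Gnas cover 31.4% of the exon bases of Nespas on the other strand, and no strand setting is given, so reads of the overlap cannot be told apart.

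Mest and Peg13 also rose. Mest, an enzyme of the alpha/beta hydrolase fold, had 562, 597, 480.1, 528 and 351 CPM in KO1 to KO5 and 457, 329, 286, 332 and 280.3 CPM in WT1 to WT5. KO5 was below WT1, which was itself far above the other wild-type libraries. The log2 fold change was 0.58 ± 0.17 (SE; edgeR adjusted p = 0.032), and the call was lost on leaving out any library except KO5 or WT1, while the direction held. It was also lost with library size class as a block (edgeR adjusted p = 0.0663) and with no filter on low counts (0.102). Copg2, a coatomer subunit gene that overlaps Mest tail to tail, had a log2 fold change of 0.12 ± 0.06 (SE; edgeR adjusted p = 0.195). Mest covers 17.8% of Copg2's exon bases on the other strand. Peg13, a noncoding RNA inside an intron of Trappc9 on chromosome 15, had 154, 162, 191, 161 and 149 CPM in KO1 to KO5 and 92.6, 111, 106, 108 and 83.1 CPM in WT1 to WT5. Its groups did not overlap, and among the imprinted genes that rose it had the smallest p, at a log2 fold change of 0.70 ± 0.09 (SE; edgeR adjusted p = 2.00e-04). Mest hosts a microRNA, printed because Mest was among the genes that rose, from RefSeq (GRCm38.p6), 5′ to 3′, with the seed in capitals.
miR-335-5p (Mest, chr6:30741314-30741336, plus strand): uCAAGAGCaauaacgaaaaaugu

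**Figure D2:**
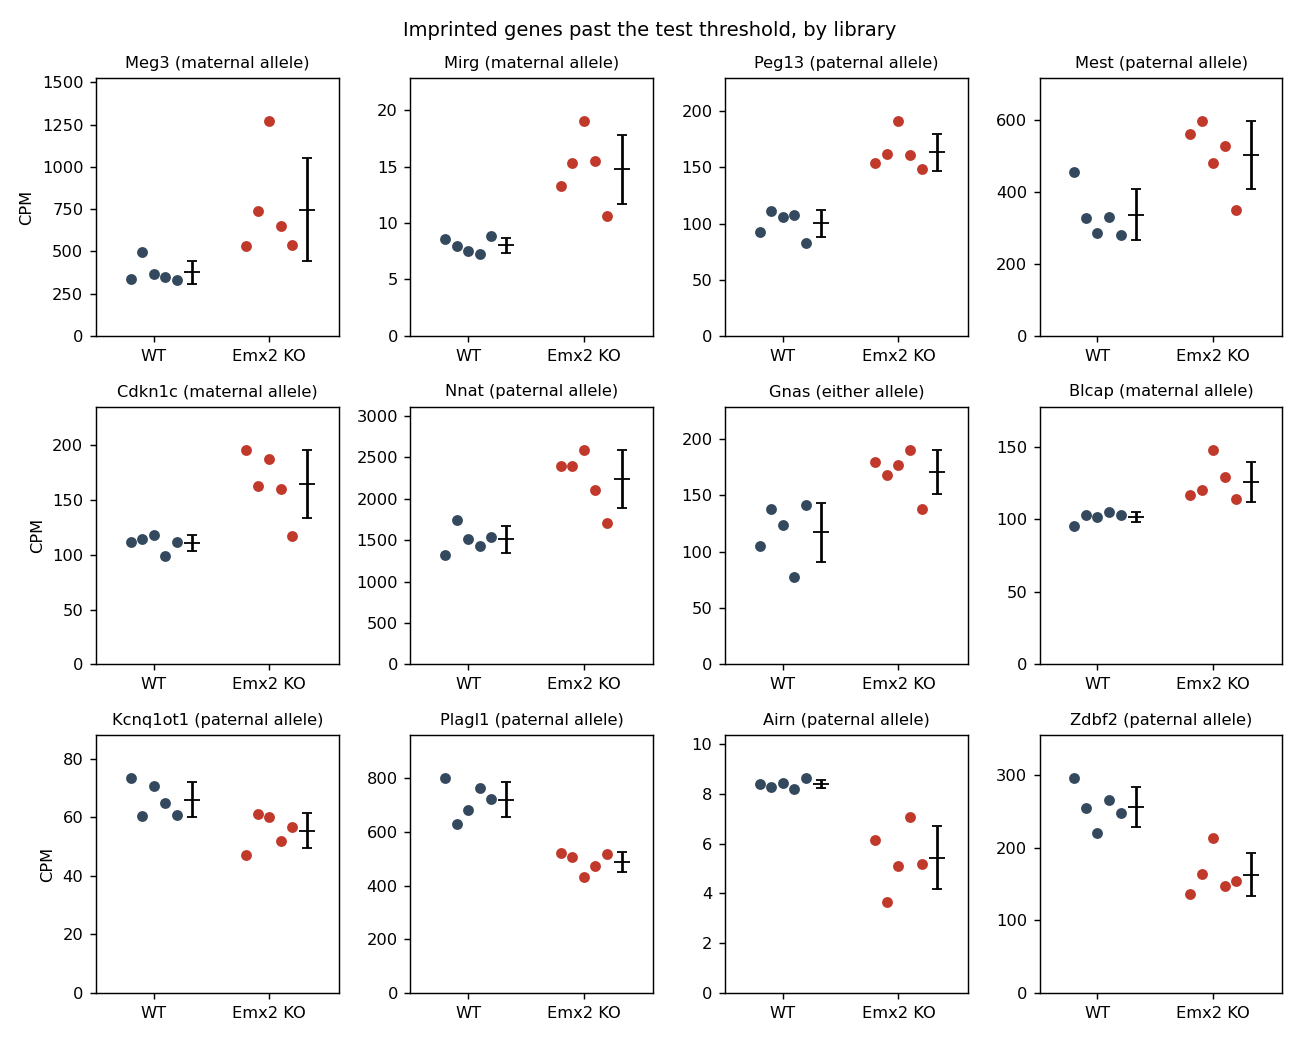
CPM (y axis, from 0) of the 12 imprinted genes past the threshold, 1 point per library in order of library number, with mean and SD (n = 5) beside each genotype. The knockout points of Meg3, Mirg, Blcap and Peg13 lie above all wild-type points and those of Plagl1, Zdbf2 and Airn below them, while the other genes overlap, mostly through KO5 or 1 high wild-type library.

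Grb10, an adaptor that dampens signalling of the insulin and IGF receptors, was second to Nnat in CPM. It had 894, 865, 844, 841 and 851 CPM in KO1 to KO5 and 1037, 866, 901, 983 and 919 CPM in WT1 to WT5. Only KO1 reached into the wild-type range, and the knockout values were close together. The log2 fold change of -0.13 ± 0.05 (SE) did not pass the threshold in edgeR (adjusted p = 0.0851), and it passed with upper-quartile scaling (0.0443), total counts alone (0.0263) and DESeq2 (0.0379). Of 19 tested genes of the IGF pathway (receptors, binding proteins and their proteases), 4 rose and 2 fell, with a median log2 fold change of 0.05. This is 31.6% called, against 22.2% of all genes. Pappa, a protease of IGF binding proteins, and Stc1 and Stc2, secreted inhibitors of that protease family, had log2 fold changes of 1.07 ± 0.22, 0.84 ± 0.14 and -0.48 ± 0.12 (SE; edgeR adjusted p = 0.00622, 0.0012 and 0.0135). Igf2bp2, an RNA-binding protein that binds Igf2 transcripts, rose by 0.26 ± 0.06 (SE; edgeR adjusted p = 0.011).

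No member of the central chromosome 7 cluster around Snrpn, the region that corresponds to the human Prader-Willi locus, passed the threshold. Ndn, a protein of postmitotic neurons, had 313, 307, 428, 315 and 319 CPM in KO1 to KO5 and 227, 351, 281, 260.5 and 277 CPM in WT1 to WT5. KO3 stood far above the other knockout libraries, which were tightly grouped, and WT2 was above all of those. The log2 fold change was 0.27 ± 0.12 (SE; edgeR adjusted p = 0.153), and without WT2 it passed the threshold. Magel2 (0.02 ± 0.23), Snrpn (0.18 ± 0.15), Peg12 (0.12 ± 0.08) and Mkrn3 (-0.06 ± 0.09), given as log2 fold change ± SE, had edgeR adjusted p values of 0.965, 0.464, 0.326 and 0.713. Snrpn shares 27.3% of its exon bases with Gm38393 on the same strand, so its count is uncertain.

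Peg3, a zinc finger protein, had 413, 488, 616, 419.6 and 372 CPM in KO1 to KO5 and 384, 480.1, 424, 393 and 407 CPM in WT1 to WT5. KO3 was the highest and KO5 the lowest of all libraries, so the wild-type range lay inside the knockout range (log2 fold change 0.14 ± 0.13 SE, edgeR adjusted p = 0.474). Its neighbours Usp29 (0.13 ± 0.14) and Zim1 (0.25 ± 0.23) also missed the threshold (edgeR adjusted p = 0.587 and 0.508). In the Peg10 cluster on chromosome 6, the retrotransposon-derived gene Peg10 had a log2 fold change of 0.45 ± 0.22, the sarcoglycan gene Sgce -0.06 ± 0.11, the neurabin gene Ppp1r9a -0.09 ± 0.06 and Asb4 -0.11 ± 0.29 (SE). Their edgeR adjusted p values were 0.19, 0.743, 0.312 and 0.85. The remaining genes were Nap1l5 (0.37 ± 0.26, edgeR adjusted p = 0.347), Commd1 (0.12 ± 0.09, 0.397), its overlapping neighbour Zrsr1 (-0.04, 0.983) and Impact, a regulator of translation (-0.11 ± 0.06, 0.216).

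Pairs of neighbours expressed from opposite alleles were described by the log2 ratio of their CPM, maternal over paternal, in each library. Of 10 pairs, 3 had ratios that did not overlap between genotypes. Of all single genes tested, 16.7% did not overlap, and no such share was computed for ratios of other genes. Cdkn1c over Kcnq1ot1 was 2.05, 1.41, 1.64, 1.62 and 1.04 in KO1 to KO5 and 0.61, 0.93, 0.73, 0.60 and 0.89 in WT1 to WT5. The ratio was higher in every knockout library, with means of 1.55 ± 0.37 and 0.75 ± 0.15 (SD, n = 5 each). Igf2r over Airn was 4.18, 4.96, 4.40, 4.14 and 4.51 in KO1 to KO5 and 3.96, 3.77, 3.84, 3.83 and 3.67 in WT1 to WT5. It too was higher in every knockout library, while Igf2r itself did not differ past the threshold. This ratio thus repeats the fall of Airn given above. Asb4 over Peg10 was lower in every knockout library (-3.51 ± 0.18) than in the wild type (-2.95 ± 0.26), although neither gene passed the threshold alone.

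The ratios of the other 7 pairs overlapped. H19 over Igf2 was 3.61 ± 0.14 in the knockout and 3.82 ± 0.19 in the wild type (SD, n = 5 each), a narrow spread compared with that of each gene, since both were high in KO1 and low in KO3. Meg3 over Dlk1 was widely spread in both genotypes, at 4.62 ± 0.64 and 4.30 ± 0.82. Rian over Rtl1 was nearly level at 6.21 ± 0.29 and 6.28 ± 0.11. Copg2 over Mest, Blcap over Nnat, Zim1 over Peg3 and Commd1 over Zrsr1 differed in mean by -0.46, -0.26, 0.13 and 0.17. No test was run on the ratios.

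**Figure D3:**
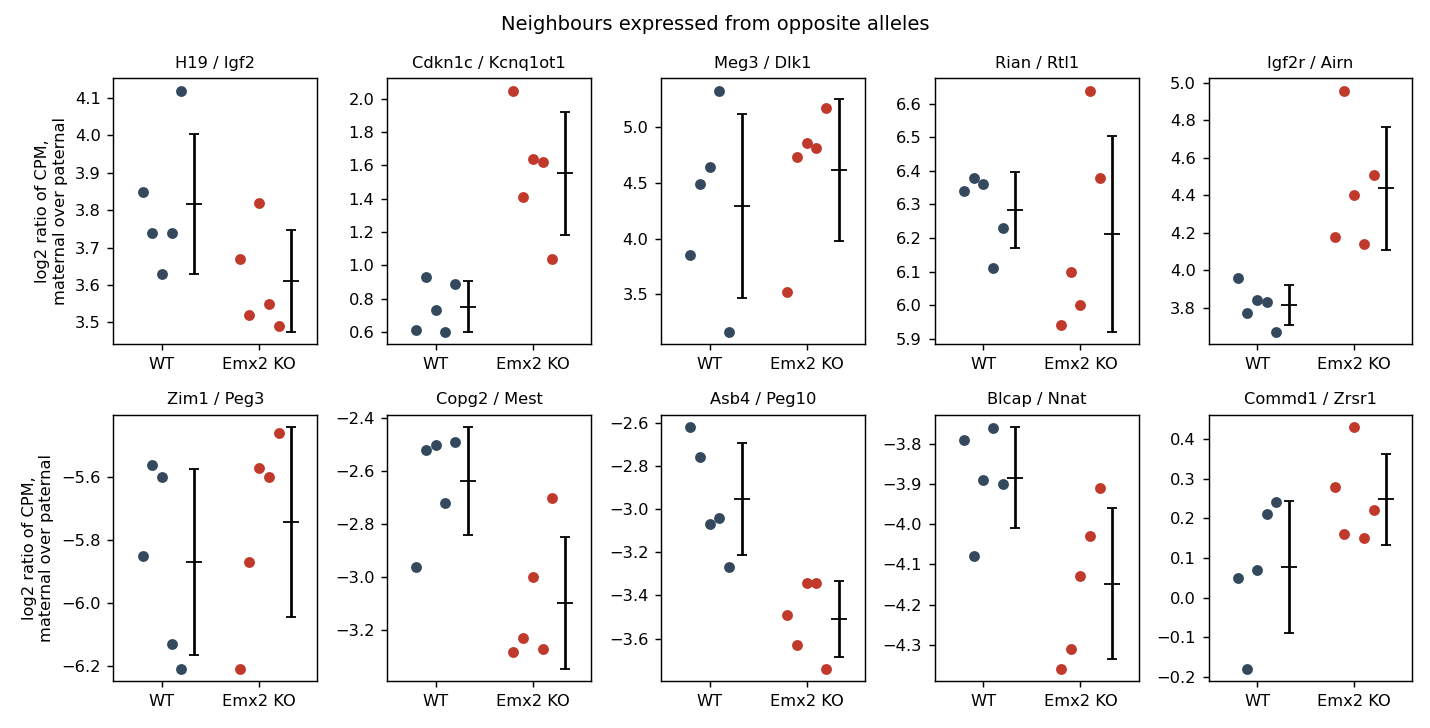
Log2 ratio of CPM, maternally over paternally expressed neighbour (y axis, a separate scale per pair), 1 point per library with mean and SD (n = 5) for 10 pairs. The genotypes separate fully for Cdkn1c / Kcnq1ot1 (from 1.04 up in the knockout, up to 0.93 in the wild type), Igf2r / Airn and Asb4 / Peg10.

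Levels can be compared between genes only per length of transcript, here CPM per kilobase of merged exons (GENCODE M21). In the wild type, Nnat was far ahead at 825 CPM per kb, followed by H19 at 152, Grb10 at 104, Plagl1 at 92.2, Mest at 85.4, Ndn at 75.6 and Cdkn1c at 54.6. Meg3 was at 20.8 on this scale and Igf2 at 4.69, a value that may lack reads in shared exons. The noncoding RNAs Kcnq1ot1 (0.711), Mirg (1.1) and Airn (2.33) were among the lowest. The 93.1 kb of merged exons of Kcnq1ot1 lower its value, while Mirg (7.29 kb) and Airn (3.6 kb) were low in CPM itself. The imprinted genes that changed thus spanned nearly the whole range of levels, from Nnat to Kcnq1ot1.

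Levels of the imprinted genes were more spread in the knockout libraries than those of other genes. Their median coefficient of variation was 18.8% in the knockout and 11.8% in the wild type, against 9.81% and 9.92% for all tested genes of at least 1 CPM. It was larger in the knockout for 24 of the 37 genes (64.9%), against 51.1% of 16033 genes. KO3 was the highest knockout library for 17 of the 37 genes, among them Meg3, Mirg, Ndn, Magel2, Peg3, Peg10, Nnat and Zdbf2, and KO5 was the lowest for 21 and the highest for 0. In the wild type, WT2 was the highest for 15 genes, of which 13 were also highest in KO3, and WT1 was the highest for 13, among them H19, Mest, Plagl1, Zdbf2 and Grb10. KO1 was the highest for 10, including H19, Igf2 and Dlk1. These counts of highest and lowest libraries were not tested. They were not made over all genes, so they may not be particular to imprinted genes.

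**Figure D4:**
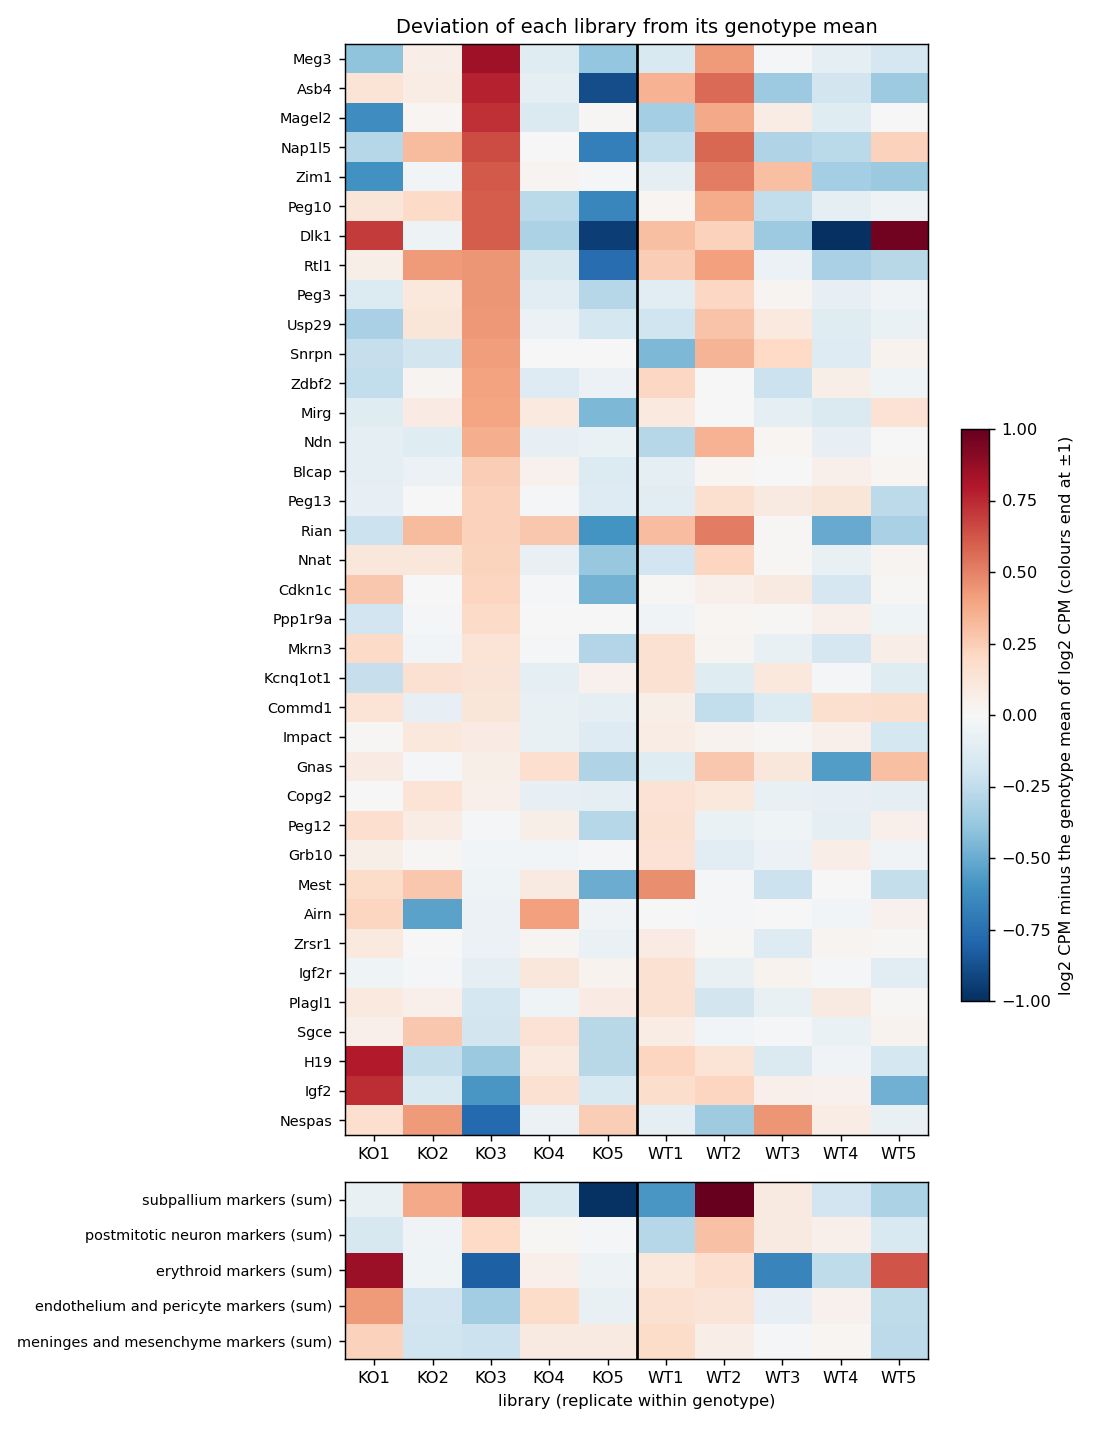
Difference of each library's log2 CPM from the mean of its genotype (colour, ending at ±1) for the 37 tested imprinted genes, ordered by the value in KO3, and for the summed CPM of 5 marker lists. Columns are libraries. KO3 is red over the upper rows because of this ordering. In the same rows WT2 is red and KO5 mostly blue, while H19 and Igf2 near the bottom are red in KO1.

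Markers of the subpallium, the ventral neighbour of the cortex, were also highest in KO3 and WT2. The summed level of 12 subpallial genes was 389, 534, 729.6, 369 and 207 CPM in KO1 to KO5 and 105, 315, 167, 138 and 126 CPM in WT1 to WT5. KO5 was the lowest of the knockout, and WT1, which was highest for 13 imprinted genes, was the lowest of all libraries. Of 11 tested genes of this list 6 rose and 0 fell (8 higher and 0 lower at an unadjusted p under 0.05 in edgeR), with a median log2 fold change of 1.75. The share that rose was 54.5%, against 12.9% of all genes. Dlx2, Gsx2 and Dlx5, transcription factors of the ganglionic eminences, had log2 fold changes of 1.99, 1.86 and 1.75. The sum of 12 genes of postmitotic neurons was 4380.4, 4779, 5621, 4936 and 4871 CPM in KO1 to KO5 and 2927, 4374, 3784, 3682 and 3208 CPM in WT1 to WT5. Every knockout library was above every wild-type library, and KO3 and WT2 were again the highest. Of these 12 genes 6 rose (50%, against 12.9% of all genes), with a median of 0.46 over the list. Among the risen were Tbr1 (0.67), Stmn2 (0.67), Elavl3 (0.65) and Tubb3 (0.64). None of the markers of either list was at 0 in all libraries of a genotype, and their part in the changes of the imprinted genes was not tested.

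Markers of choroid plexus, an epithelium at the medial edge of the cortex that secretes cerebrospinal fluid, were far lower in the knockout. Their sum over 15 genes was 74.6 to 110.4 CPM against 294 to 354 CPM in the wild type. Of 14 tested genes 12 fell (85.7%, against 9.33% of all genes). Kcne2 (-5.78), Ttr (-5.61), Htr2c (-4.66) and Clic6 (-2.81), genes of ion transport, hormone carriage and serotonin signalling, led this group by p. Of 9 tested genes of the diencephalon, Barhl2 rose (1.15 ± 0.34 SE) and the rest did not pass the threshold. This is 11.1% called, against 22.2% of all genes. The 9 log2 fold changes ran from -3.41 to 1.32 with a median of -0.16, and 3 were positive. At an unadjusted p under 0.05 (edgeR), 1 of the 9 was higher and 2 were lower, against 3316 and 2822 of all 18163 genes. The part of these cells in the imprinted genes that fell was not tested.

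Sample titles end in 1 of 3 codes, each shared by knockout and wild-type libraries, and no label explains the code. In the 4 libraries with code 241022 alone, 2 of the imprinted genes rose and 1 fell (8.11% of the 37, against 2.85% of all genes in that fit). In the 4 with code 14922 alone, 1 rose and 3 fell, 1 of which was H19 (-0.46), which is 10.8% against 8.96% of all genes. All 12 called genes had the same sign in both subsets as in the full comparison. With the code as a block, all 12 remained past the threshold. With the size class as a block 10 of the 12 remained, without Kcnq1ot1 and Mest, and with Y-linked expression as a covariate 10 remained, without Meg3 and Gnas. An interaction of genotype with code, tested in the 8 libraries of these codes, passed the threshold for 1.53% of 18431 genes and for 0 of the 37 imprinted genes (edgeR). At an unadjusted p under 0.05 the count was also 0, and the smallest p, that of Nespas, was 0.0781 (adjusted p = 0.84). Code and library size were entangled, as the genotypes sharing a code always differed in size class, large against small. In the 8 libraries the interaction thus equals the contrast of large with small libraries, and cannot show whether the effect differs between codes. Within a size class the genotypes shared no code, so genotype and code cannot be told apart there. In the 5 small libraries alone, 0 imprinted genes rose by edgeR's test and 2 fell, 1 of them H19 (-0.61), or 5.41% against 3.56% of all genes. At an unadjusted p under 0.05, 3 were higher and 4 lower there. In the 5 large libraries alone, 11 rose and 2 fell, or 35.1% against 16.4% of all genes.

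Among other imprinted genes, fixed as a separate list, 3 of 14 tested maternally expressed genes rose and 2 fell, with a median log2 fold change of 0.06. This is 35.7% called, against 22.2% of all genes. Cd81, a tetraspanin, and Ube3a, a ubiquitin ligase that is imprinted in neurons, fell (-0.29 ± 0.05 and -0.19 ± 0.04 SE, edgeR adjusted p = 9.03e-04 and 0.00987). Trappc9, whose intron holds Peg13, and Htr2a, a serotonin receptor, rose (0.29 ± 0.07 and 0.90 ± 0.28 SE, edgeR adjusted p = 0.0105 and 0.0392). Of 12 tested paternally expressed genes of that list 2 rose and 1 fell (25% called), with a median of 0.15. Bcl2l1, a survival factor, and Begain, a synaptic protein gene near Dlk1, rose (0.36 and 0.37), and Gab1, a signalling adaptor, fell (-0.35).

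Of 17 tested genes that establish, maintain or remove imprints, 6 rose and 2 fell (47.1% called, against 22.2% of all genes). The list includes the Tet genes. The median log2 fold change was 0.07, with a range of -0.23 to 0.33, and 10 values were positive. The summed level was 4199 to 4396 CPM in the knockout and 3928 to 4023 CPM in the wild type. Ehmt2, a histone methyltransferase, Trim28, the corepressor recruited by ZFP57, Dnmt1, the maintenance DNA methyltransferase, and Uhrf1, its partner at replicated DNA, had log2 fold changes of 0.33 ± 0.04, 0.28 ± 0.04, 0.22 ± 0.03 and 0.20 ± 0.05 (SE; edgeR adjusted p = 1.87e-04, 4.16e-04, 7.63e-04 and 0.00808). All were thus changed by well under 1.5-fold.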

How the data were processed

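The authors deposited raw, whole-number counts for each Ensembl gene, made with bcl2fastq 2.20, STAR 2.7.8a and featureCounts 1.6.3-p1, per the submitters' processing notes. The notes name the builds GRCm39 and, for mouse samples, also rn6. Parameters, strand setting and annotation release are not given in the sources used here, so antisense and overlapping genes cannot be told apart by strand. Of 56748 identifiers, 52073 matched a symbol. Gene names, exon lengths and overlaps came from tables of GRCm38 (GENCODE M21, RefSeq GRCm38.p6), matched by identifier or symbol, and coordinates are printed only for RefSeq sequences.

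From these counts, edgeR 4.0.16 (R 4.3.3) tested 18163 genes left by filterByExpr (minimum count 10), scaled by TMM, with the robust quasi-likelihood F test, genotype as the only term, two-sided, and Benjamini-Hochberg adjustment over all of them at 0.05. Standard errors were derived from the F statistic. CPM used TMM-scaled totals. Counts of libraries of a genotype differed beyond sampling noise in all 20 pairs (chi-square of 9.06 to 23.7 per gene), so none was merged. The depth per library limits precision for genes under a few CPM. The procedure was tested on simulated data.

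The imprinted genes, the other lists and the alternatives were chosen with earlier results of these data known. Values per library are given for members past the threshold and for H19, Igf2, Cdkn1c, Dlk1, Meg3, Grb10, Igf2r, Peg3, Mest, Plagl1, Ndn, Nnat and Gnas, and from each other list at most 4 genes past the threshold with the smallest p are named (1 where none passed), of which 1 is not reported here. Alternatives were upper-quartile scaling, RLE size factors and total counts alone, other filters, DESeq2 1.42.0, limma-voom (limma 3.58.1), title code, library size class or Y-linked expression as covariates, single codes or size classes, each library left out, and stricter thresholds. After seeing the data, KO3 and KO5 were also left out together.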

Additional observations from a re-analysis of the deposited data

Results flagged for a closer look

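In groups of 5 libraries, a library was singled out when its gap to the nearest library exceeded 0.71 of the group's whole range (Dixon's critical value). This was met by 5 of 74 groups (37 genes in both genotypes), or 6.76%, where chance gives about 1 in 20. KO3 was the far highest knockout library for Ndn (gap ratio 0.9, at 428 CPM) and Meg3 (0.722, at 1269.9 CPM). WT2 was the far highest wild-type library for Meg3 (0.789, at 499.5 CPM), and WT1 for Mest (0.71, at 457 CPM). WT5 was the far lowest wild-type library for Impact (0.718, at 48.6 CPM).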

How the results depend on the processing

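The count of imprinted genes that rose (8) was 6 to 10 with each library left out, and that of genes that fell (4) was 3 to 5. Rises numbered 5 with no filter on low counts, 5 at an adjusted p under 0.01, 3 at 1.5-fold or more, 2 in code 241022, 1 in code 14922, 0 in the small libraries and 11 in the large libraries. Falls numbered 1 in code 241022, and 2 in the large libraries, in the small libraries, at an adjusted p under 0.01 and at 1.5-fold or more. Subsets hold fewer libraries, and beyond that the cause was not tested. The maternal median (0.19) ran from 0.10 to 0.23 with a library left out and the paternal median (0.12) from 0.06 to 0.17, and in code 14922 they were 0.30 and 0.27. Emx2 ran from -0.66 to -0.51 with a library left out and was -0.49 in code 241022. The 12 called genes kept their sign under every alternative run. Signs turned only for genes that did not pass the threshold, as follows in log2 fold change. With upper-quartile scaling Magel2 was -0.01, with total counts alone Magel2 -0.02 and Igf2 -0.00, with limma-voom Magel2 -0.07, with the code as a block Magel2 -0.00, and with the size class as a block Igf2 -0.05. With Y-linked expression as a covariate H19 was 0.01, Asb4 0.07, Zrsr1 0.00 and Magel2 -0.13. In the large libraries H19 was 0.15, Asb4 0.16, Sgce 0.10, Mkrn3 0.10, Zrsr1 0.05 and Magel2 -0.22, and in the small libraries Ppp1r9a 0.03, Igf2 -0.37 and Peg12 -0.09. In code 241022 Zim1 was -0.28, Usp29 -0.03, Snrpn -0.01, Magel2 -0.35, Sgce 0.05 and Nespas 0.46, and in code 14922 Asb4 0.28 and Igf2 -0.41. Without KO3 and KO5 together H19 was 0.06, Sgce 0.07, Nespas 0.08, Zrsr1 0.01 and Magel2 -0.25. With each library left out in turn the ranges that reached or crossed 0 (to 2 decimals) were -0.33 to 0.05 for Asb4, -0.07 to 0.00 for Igf2r, -0.19 to 0.16 for Igf2, -0.20 to 0.15 for Magel2, -0.12 to 0.00 for Mkrn3, -0.16 to 0.09 for Nespas, -0.14 to -0.00 for Sgce and 0.00 to 0.20 for Usp29. No paired analysis was possible because the replicate numbers follow accession order and pair nothing. Genes under a few CPM, such as Rtl1 and Nespas, are limited by their counts.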
